A study of Mus musculus with 8 samples.

Results

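The liver handles most of the methyl groups of the body. Methionine is turned into S-adenosylmethionine, the donor of methyl groups, the product of each transfer is broken down to homocysteine, and homocysteine is either methylated back to methionine with betaine or folate or led through transsulfuration to cysteine. Choline, betaine, folate, serine and glycine feed this cycle, and phosphatidylcholine synthesis and the methylation of nicotinamide and glycine draw on it. The 9 genes described here encode enzymes at these points: Mat1a, Gnmt, Ahcy, Bhmt, Pemt, Nnmt, Cbs, Cth and Shmt2. They were chosen by name, 9 of the 34836 gene names in the scanner files, and every probe assigned to one of them was read separately, which gave 18 probes of 55681 on the array.

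Liver RNA of 4 NZO mice (NZO/HiBomDife), an inbred strain that becomes obese and diabetic, was compared with that of 4 mice of the lean B6 strain (C57BL/6). All were male, 6 weeks of age and had been fed a diet with 45% fat, and each mouse was measured on 1 one-colour Agilent array. Values are log2 of the processed signal relative to the 75th percentile of the array, so a level of 0 equals that percentile, and a log2 fold change is the mean of NZO minus the mean of B6. The strain is the only difference between the groups that the labels give, and all mice had the same diet, so the comparison is one of strains on this diet. Between 50.4% and 60.1% of the spots of an array were well above background, 0 were saturated, and precision is limited by the number of arrays. All 8 arrays measured 17 of the 18 probes well above background. Alb, which encodes albumin and marks hepatocytes, was at 11.21 ± 0.02 in NZO and 10.94 ± 0.23 in B6 (SD, n = 4), and 0 of the 5 hepatocyte markers had an unadjusted p of 0.05 or less in limma, against 27.9% of all genes tested. Alb and Ttr, the gene of the transport protein transthyretin, were higher in every NZO mouse than in any B6 mouse, and Ttr (0.15) passed the test of the methods, which corrects for unequal variances, after adjustment (adjusted p = 0.0209). The arrays differed in genes of another tissue, skeletal muscle, led by the myosin gene Myh4. Their summed level (log2 of the sum over the genes tested) was highest in NZO 007, at 4.06, and -3.05 to -1.80 in the other NZO mice. In B6 it was 2.44 in B6 010 and -1.39 to 0.43 in the other mice. Values without NZO 007 are given where leaving it out moved the adjusted p of a probe of the 9 genes across 0.05, and for the upstream Ahcy probes. Fits without B6 010 are given only within the ranges over fits that left out 1 mouse.

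The probes that carried the differences lie at different places of their genes, and their first 30 bases, or the 30 bases around the letters AATAAA, are printed here with their names in the files. AATAAA, which is the core of the signal for cleavage and polyadenylation when it is found near the end of a transcript, is in capitals.
Nnmt A_55_P2181557: tatttcactgtcagtatttagcaaacatct
Nnmt A_55_P2185840: atcaagcaggtactaaagtgtgatgtgacc
Ahcy A_55_P2031100: atgagatgccaggattgatgcgcatgcggg
Ahcy A_52_P176160: gcattgagcagacgctgcacttcaaggacg
Ahcy A_55_P2000938: acctggaaagcaAATAAAaacaagccccgt
Bhmt A_55_P2105180: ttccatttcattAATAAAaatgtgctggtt
Bhmt A_55_P2103969: tatctacttaactttccagatctttttcca
On the mm9 build used by the files, the first Nnmt probe lies at chr9:48413168-48413227 and the second at chr9:48400368-48400427, both on the minus strand and 12740 bases apart. The 3 Ahcy probes lie on the minus strand of chromosome 2 at chr2:154894644-154894703, chr2:154891321-154891380 and chr2:154885047-154885106, in the order of transcription. The last one is assigned to Ahcy through the cDNA BC086781, whereas the other two carry the RefSeq mRNA NM_016661. The Bhmt probes lie at chr13:94386856-94386915 and chr13:94395097-94395156, also on the minus strand, the former with the RefSeq mRNA NM_016668 and the latter with the single Ensembl transcript ENSMUST00000124193. The letters AATAAA were searched on the strand of the probe and were found in 3 of the 18 probes, as in 5602 of the 55681 probes of the array (10.1%), and a match only describes these letters.

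By limma's fit across 27623 probes, with Benjamini-Hochberg adjustment over all of them, 0 of the 18 probes were higher in NZO and 2 were lower at an adjusted p of at most 0.05 and a log2 fold change of at least 0.7 in either direction, the criteria for a call. These 2 probes belong to Nnmt and Ahcy. The Nnmt probe was above background on 2 of the 4 NZO arrays and entered the test only through B6, where it was high, so its call is a description of these signals. Of the 17 probes above background on all arrays, 1 was called, that of Ahcy. The share called among all probes tested was 9.62%, with 4.36% higher (1203) and 5.27% lower (1455), and the deposited values gave 575 higher and 1421 lower. At limma's unadjusted p of at most 0.05 and the same fold limit, 1 probe was higher and 3 were lower, against 12.2% of all probes in either direction. The test of the methods, with these limits and no adjustment, gave 0 higher and 3 lower probes, against 10.5% of all probes. By the adjusted p alone, 4 probes passed, against 14.3% of all probes, and the 2 that did not reach the fold limit were the single Shmt2 probe and 1 of the 4 Bhmt probes. At 10 of the 18 probes the 2 strains did not overlap, 6 of them higher in NZO and 4 lower, while this held for 22.0% of all probes. The median log2 fold change of the 18 probes was 0.07, compared with 0.02 over all probes tested. Probes of the same gene are not independent of each other, and 5 of the 9 genes had more than 1 probe.

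**Figure D1:**
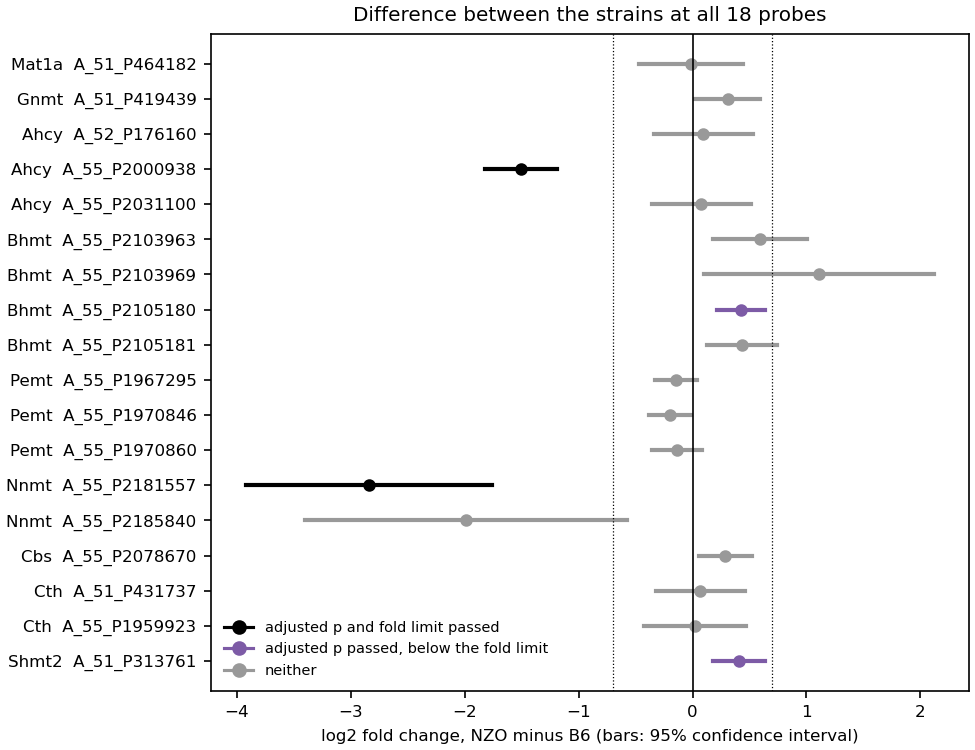
Log2 fold change of NZO against B6 liver at each of the 18 probes, with 95% confidence intervals from limma and dotted lines at the fold limit of 0.7. Probes of Nnmt and Ahcy (-1.50) passed both criteria and are drawn in black, that of Nnmt with 2 of the 4 NZO signals not well above background, so that its position has no exact size, and 1 probe each of Bhmt (0.43) and Shmt2 (0.41) passed the adjusted p alone.

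Nnmt is the cytosolic enzyme that methylates nicotinamide with S-adenosylmethionine. Its probe A_55_P2181557, near the start of the transcript, had levels of -3.00, -3.96, -4.19 and -2.01 in NZO 003, 007, 009 and 011. In B6 009, 010, 011 and 015 the levels were -0.42, -0.97, -0.51 and 0.11. All NZO values lay below all B6 values, and the signal was above background in 2 of the 4 NZO mice, 003 and 011, and in all B6 mice. The measured means differed by -2.84 (limma's adjusted p = 0.00483). This is no exact size, since 2 NZO signals were not well above background, and it moved with the processing, to -1.03 with normexp background correction (adjusted p = 0.0017) and -1.73 with the deposited values. With the mouse number as a block the probe was not called (adjusted p = 0.172). The call was lost with the test of the methods after adjustment (adjusted p = 0.0587) and when slide entered the fit as a fixed term (-2.57, adjusted p = 0.241), a fit that rests on the 3 arrays of the only slide with both strains.

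The second probe of Nnmt, A_55_P2185840, lies further along the mRNA and was above background in all mice. Here the levels were 2.68, 1.17, 0.74 and 3.56 in NZO 003, 007, 009 and 011. The B6 mice 009, 010, 011 and 015 had levels of 3.88, 3.49, 3.91 and 4.81. The value of NZO 011 lay among those of B6, the other three below them. The log2 fold change was -1.98 (95% interval -3.40 to -0.57) and missed the threshold (adjusted p = 0.0707). Without NZO 011 it was -2.49 and passed (adjusted p = 0.0191), whereas without any other single mouse it was between -2.20 and -1.55 and did not (adjusted p = 0.0890 to 0.159). It also passed with normexp background correction (adjusted p = 0.0351). The SD of the NZO mice at this probe, 1.32, was larger than that of 98.6% of all probes tested, and in B6 the SD was 0.56. At both probes NZO 011 was the highest of the NZO mice.

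Nnmt is also expressed in fat. Of the 6 adipocyte markers, Adipoq, Plin1 and Lep, which define the cell type, were above background on 0 arrays, and 0 of the other 3 were called (1 at an unadjusted p of 0.05). Their summed level was 9.14 to 9.33 in NZO and 8.68 to 8.91 in B6, most of it from Car3 (0.47, adjusted p = 0.0131), which hepatocytes express as well. The other two tested markers gave 0.42 for Cidec and -0.30 for Fabp4. In bulk tissue, fewer cells of a type and less RNA per cell cannot be told apart. Hepatocytes differ between the central and the portal end of the liver lobule, and 0 of the 6 tested pericentral markers (3 at an unadjusted p of 0.05, 0 with the test of the methods after adjustment) and 1 of the 7 periportal ones were called, against 9.42% of all genes tested by these criteria and 27.9% by the unadjusted p. The periportal gene was Cdh1, the cadherin of epithelial junctions (-1.01, adjusted p = 0.00164). The median log2 fold change of the pericentral markers was -0.39. Cyp1a2, a cytochrome P450, and Lgr5, a receptor of Wnt signalling, passed the adjusted p below the fold limit, at -0.45 (adjusted p = 0.0362) and -0.45 (adjusted p = 0.0356). The part of these shifts in the Nnmt difference was not tested.

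**Figure D2:**
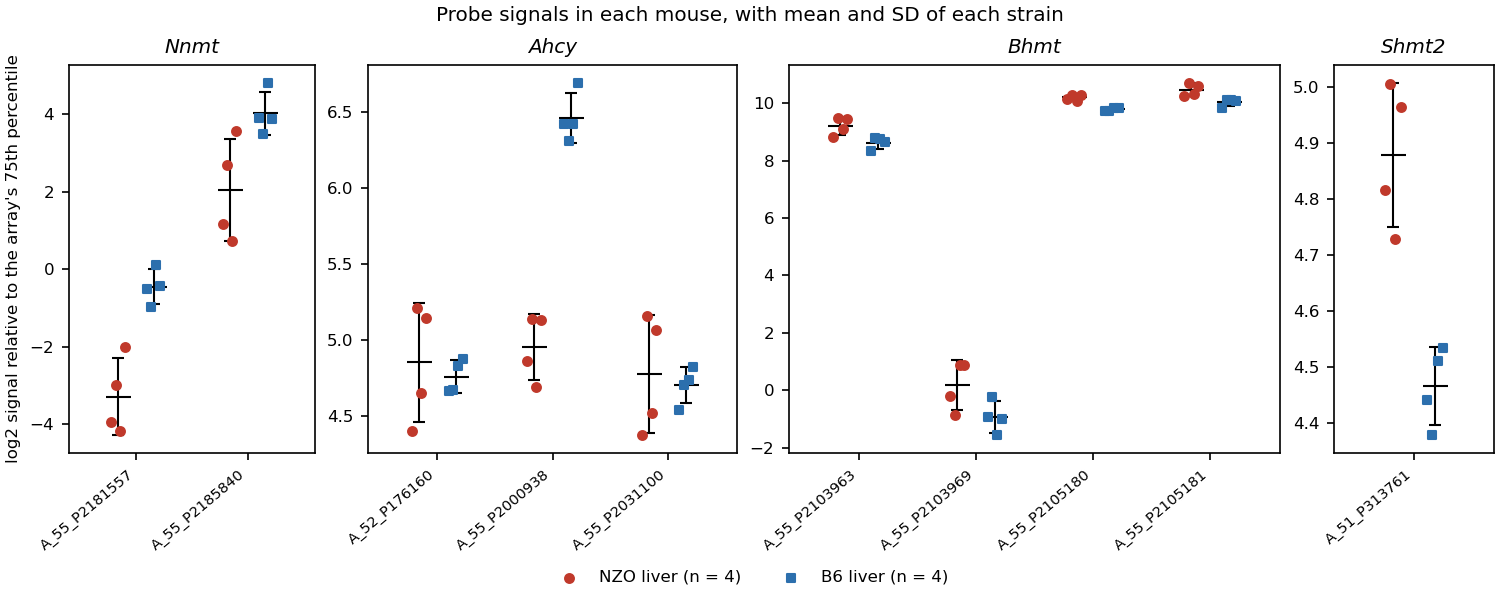
Levels (log2, with 0 at the 75th percentile of the array) in each NZO (red circles) and B6 mouse (blue squares) at the probes of Nnmt, Ahcy, Bhmt and Shmt2, with the mean and SD of each strain and a separate scale for each gene. NZO was below B6 at the first Nnmt probe, where 2 of the 4 NZO signals were not well above background, and at 1 of the 3 Ahcy probes (-1.50), while the strains overlapped at the other two Ahcy probes.

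Ahcy encodes the hydrolase that splits S-adenosylhomocysteine, the product of every methyl transfer, into homocysteine and adenosine. Its probes disagreed. At A_55_P2000938, the most downstream one, the levels were 5.14, 4.86, 4.69 and 5.13 in NZO 003, 007, 009 and 011. The levels in B6 009, 010, 011 and 015 were 6.69, 6.31, 6.42 and 6.42. The strains were thus separated by more than 1 log2 unit, and the signal fell by 1.50 (SE 0.14, limma's adjusted p = 0.000215), which corresponds to a 2.84-fold higher signal in B6. At the upstream probe A_52_P176160 the levels were 5.21, 4.40, 4.65 and 5.15 in NZO 003, 007, 009 and 011. The B6 levels were 4.87, 4.67, 4.66 and 4.83. Here the strains overlapped, with 2 NZO mice above and 2 below all B6 mice.

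The log2 fold changes of the upstream Ahcy probes were 0.09 (95% interval -0.34 to 0.53) for A_52_P176160 and 0.08 (95% interval -0.36 to 0.51) for A_55_P2031100, with adjusted p of 0.788 and 0.831. Without NZO 007 they were 0.24 and 0.21 (adjusted p = 0.351 and 0.460). The strain difference was 1.60 and 1.58 log2 units lower at the downstream probe than at A_52_P176160 and A_55_P2031100. The exact two-sided permutation p was 0.0286 in both cases, the smallest that 4 mice against 4 allow, and did not pass after adjustment over the 14 pairs of probes of one gene (0.10), whereas the upstream probes differed from each other by 0.02 (exact p = 0.714). The pair of Nnmt probes had the same exact p of 0.0286. So did the Pemt probes A_55_P1967295 and A_55_P1970846, whose log2 fold changes differed by only 0.05. The call at the downstream probe was kept in each fit that left out 1 mouse (-1.57 to -1.42), and lost with the slide as a fixed term (-1.23, adjusted p = 0.0713). It was also lost with the mouse number as a block (-1.64, adjusted p = 0.0960). Probes are designed on a reference sequence, and in a comparison of strains, a difference of sequence under a probe, a different end of the transcript and a different amount of RNA cannot be told apart at a single probe. Probes were ordered by their mm9 coordinates, and the place of the downstream probe relative to the end of the Ahcy transcript was not checked.

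By the root mean square difference over the 8 arrays after centring, the 3 genes of 13250 whose pattern was most like that of the downstream Ahcy probe were ND1, a mitochondrially encoded subunit of complex I (0.12), the linker histone gene H1f2 (0.13) and the glutamate transporter gene Slc1a2 (0.13). For the first Nnmt probe they were Fam187b, the collagen gene Col5a3 and the lectin gene Clec2h. At that probe 2 of the 4 NZO signals were not well above background. The choice of these genes is therefore not exact, and no distances or order are given.

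Bhmt encodes betaine-homocysteine methyltransferase, which returns homocysteine to methionine with a methyl group of betaine. The 3 probes with its RefSeq mRNA gave higher values in every NZO mouse than in any B6 mouse. At A_55_P2105180, levels were 10.29, 10.16, 10.08 and 10.29 in NZO 003, 007, 009 and 011. In B6 009, 010, 011 and 015 they were 9.82, 9.73, 9.72 and 9.84. This log2 fold change of 0.43 (SE 0.09) passed the adjusted p (0.0174) but not the fold limit. It was 0.43 also at A_55_P2105181 (adjusted p = 0.072), where it was 0.51 without NZO 007 (adjusted p = 0.0483), and 0.59 at A_55_P2103963 (adjusted p = 0.0652), where it was 0.72 without NZO 007 and then met both criteria (adjusted p = 0.0242). With normexp background correction these probes passed the adjusted p at 0.40 (adjusted p = 0.0181) and 0.53 (adjusted p = 0.0332), below the fold limit. At A_55_P2105180 the adjusted p was between 0.0231 and 0.0544 when 1 mouse was left out, and it was 0.279 with the deposited values, which shift all probes by -0.17 in the median. The deposited values were not scaled to the 75th percentile of the array, whose median was 122 in NZO and 148 in B6. The adjusted p at A_55_P2105180 was 0.0780 without a filter on dim probes, 0.234 with slide as a fixed term and 0.289 with the mouse number as a block. With the deposited values the log2 fold change was 0.18 at A_55_P2105180, 0.23 at A_55_P2105181 and 0.38 at A_55_P2103963. At A_55_P2105180 it was 0.43 without the filter, 0.50 with slide and 0.42 with the mouse number. The fourth probe, A_55_P2103969, lies 8181 bases upstream of A_55_P2105180, and its signal was weak. It gave -0.84, -0.19, 0.89 and 0.90 in NZO 003, 007, 009 and 011. In B6 009, 010, 011 and 015 it gave -0.99, -0.22, -0.92 and -1.55. The strains overlapped, and the log2 fold change of 1.11 (SE 0.44) had an unadjusted p of 0.0353 and an adjusted p of 0.145 in limma. The unadjusted p of the test of the methods, from an unequal-variance fit of each probe, was 0.0799. Across the alternatives that kept all 8 mice the log2 fold change ranged from 0.04 with slide as a fixed term to 1.85 with the mouse number as a block, and it never passed the adjusted p.

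Shmt2, the mitochondrial hydroxymethyltransferase that moves a carbon from serine to folate, had levels of 5.01, 4.82, 4.73 and 4.96 in NZO 003, 007, 009 and 011. The levels in B6 009, 010, 011 and 015 were 4.53, 4.38, 4.44 and 4.51. The strains did not overlap, and the log2 fold change of 0.41 (SE 0.10, limma's adjusted p = 0.027) stayed below the fold limit. The adjusted p was above 0.05 in 6 of the 8 fits that left out 1 mouse (range 0.0285 to 0.0786). It was also above 0.05 with normexp background correction (0.27, adjusted p = 0.0793) with the deposited values (0.12, adjusted p = 0.558), without a filter on dim probes (adjusted p = 0.105), with slide as a fixed term (adjusted p = 0.207) and with the mouse number as a block (adjusted p = 0.342).

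Mat1a, Gnmt and Pemt make and use S-adenosylmethionine. Mat1a, the liver form of methionine adenosyltransferase, had levels of 6.61, 5.89, 6.26 and 6.80 in NZO 003, 007, 009 and 011, and its 4 B6 values lay within that range (log2 fold change -0.01, 95% interval -0.47 to 0.44). Gnmt, which methylates glycine and is an abundant protein of the liver, ranged from 8.43 to 8.88 in NZO and from 8.24 to 8.43 in B6. These ranges met without overlap, and the log2 fold change of 0.31 did not pass (adjusted p = 0.15). For Gnmt it was 0.09 with the deposited values, 0.18 with quantile normalization and 0.41 with slide as a fixed term. Pemt, the enzyme that makes phosphatidylcholine by 3 methylations of phosphatidylethanolamine, gave small values at its 3 probes, with log2 fold changes of -0.15, -0.20 and -0.14 and adjusted p of 0.272, 0.151 and 0.409 for A_55_P1967295, A_55_P1970846 and A_55_P1970860. Whether Pemt passed the adjusted p depended on the processing, always below the fold limit. The probes A_55_P1967295 and A_55_P1970846 passed with the test of the methods after adjustment (adjusted p = 0.0186 and 0.0158). A_55_P1970846 and A_55_P1970860 passed with normexp background correction (-0.25 and -0.24, adjusted p = 0.0304 and 0.0316) and with the deposited values (-0.41 and -0.40, adjusted p = 0.0289 and 0.0405), and A_55_P1970846 also with quantile normalization (-0.31, adjusted p = 0.0410). Its mice were close to one another. At A_55_P1970846, levels were 5.78, 5.83, 5.79 and 5.73 in NZO 003, 007, 009 and 011. They were 5.99, 5.98, 5.95 and 6.00 in B6 009, 010, 011 and 015. The strains were separate here and at A_55_P1967295, though A_55_P1967295 and the third probe A_55_P1970860, where they overlapped, share 23 bases.

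Cbs and Cth act in sequence in transsulfuration, where Cbs joins homocysteine to serine and Cth releases cysteine. Cbs ranged from 8.60 to 8.83 in NZO and from 8.26 to 8.53 in B6, with a log2 fold change of 0.29 (95% interval 0.06 to 0.52) that did not pass after adjustment (adjusted p = 0.102). The Cbs value was 0.04 with the deposited values, 0.17 with quantile normalization and 0.43 with slide as a fixed term. The probes of Cth gave 0.07 (95% interval -0.32 to 0.46) and 0.02 (95% interval -0.43 to 0.47), and the strains overlapped at both. Both values turned negative with quantile normalization.

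**Figure D3:**
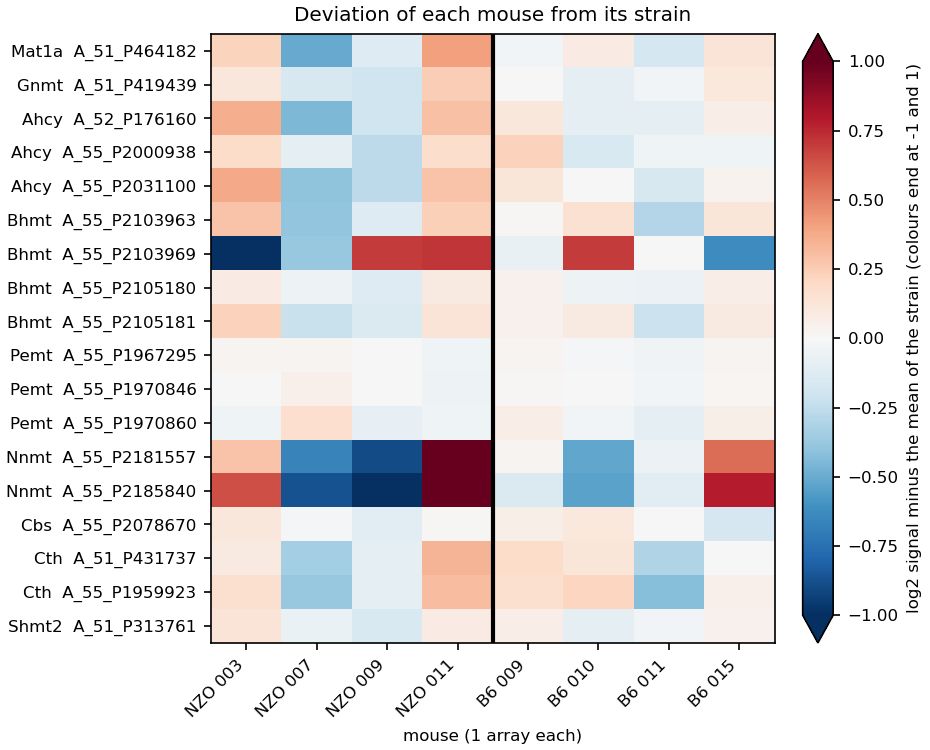
Deviation of each mouse from the mean of its strain at the 18 probes, in log2 units, with NZO mice left and B6 mice right of the black line and colours that end at -1 and 1. Among the 17 probes above background on all arrays, the NZO mice varied most at the second Nnmt probe (SD 1.32). The Pemt probes A_55_P1967295 and A_55_P1970846 varied least. At the first Nnmt probe 2 of the 4 NZO signals were not well above background, so its spread has no exact size.

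The SD among the NZO mice was larger than that among the B6 mice at some of these probes, which was not tested. At Mat1a the NZO SD was 0.41 and the B6 SD 0.13, and at the upstream Ahcy probes the NZO SD was 0.39 at both, against 0.11 and 0.12 in B6. NZO 003, 009 and 011 shared a scan day with B6 010 and 015, and NZO 007 was scanned with B6 009 and 011. At the downstream Ahcy probe the difference was -1.38 within the first scan day, -1.70 within the second and -1.23 on the slide that held NZO 003, B6 010 and B6 015. At the first Nnmt probe it was -2.57 on that slide, where all 3 signals were above background. Within the scan days that probe gives no exact size, since NZO 009 on the first day and NZO 007, the only NZO mouse of the second, were not well above background.

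The other genes of these pathways were described by 8 lists with 101 genes, of which 96 were tested, each by its brightest probe. Both criteria were met by 4 genes that were higher and 6 that were lower in NZO, 10.4% of those tested, compared with 4.44% higher and 4.98% lower of all 20118 genes tested. Without NZO 007, 7 were higher and 5 lower.

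In the folate and serine-glycine list, 1 of 23 genes passed, and the median log2 fold change was 0.30, against 0.03 for all genes tested. It was Mthfd2, the mitochondrial dehydrogenase and cyclohydrolase next to Shmt2 in the pathway, which rose by 1.33 (SE 0.19, adjusted p = 0.00232), from -2.59 ± 0.35 in B6 to -1.26 ± 0.21 in NZO (SD, n = 4). Shmt1, the cytosolic counterpart of Shmt2 (0.61, adjusted p = 0.00853), Fpgs, which adds glutamates to folate (0.60, adjusted p = 0.00421), and Amt and Gldc of the glycine cleavage system (0.58 and 0.46, adjusted p = 0.0325 and 0.0323) passed the adjusted p alone. With the test of the methods after adjustment, Fpgs still passed (adjusted p = 0.0250). Shmt1, Amt and Gldc then did not (adjusted p = 0.0568, 0.102 and 0.0557). Shmt1 was between 3.93 and 4.32 in NZO and between 3.45 and 3.56 in B6. Among the 11 tested genes of the methionine cycle, Adi1, an enzyme of methionine salvage, fell by 1.46 at its brightest probe (adjusted p = 0.000134), while its other tested probe gave 0.20. Bhmt2, the paralogue of Bhmt, gave 0.43 (adjusted p = 0.0428), again below the fold limit. It did not pass with the test of the methods after adjustment (adjusted p = 0.0557).

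Of the 9 genes for choline and betaine breakdown, limma called 0, with 2 at an unadjusted p of 0.05, and the test of the methods after adjustment also called 0. Chdh, which oxidises choline on the way to betaine, came closest, at -0.67 (adjusted p = 0.0234, and 0.0777 with the test of the methods after adjustment). Its other tested probes gave -0.34 and -0.32. Of the 12 genes tested for phosphatidylcholine synthesis, 1 passed. This was Etnk2, an ethanolamine kinase, which fell by 1.05 (adjusted p = 0.00315), and its other two probes gave -1.25 and -0.55. Etnk2 was not called with the test of the methods after adjustment (adjusted p = 0.0541). In the list for transsulfuration and cysteine use, Got1, the cytosolic aspartate aminotransferase, rose by 1.23 (adjusted p = 0.0245, and 0.0829 with the test of the methods after adjustment), and Sqor, which oxidises sulfide, fell by 0.71 (adjusted p = 0.00465), just past the fold limit. Mpst, the mercaptopyruvate sulfurtransferase, passed the adjusted p alone at 0.41 (adjusted p = 0.0226).

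Of the 13 other methyltransferases that use S-adenosylmethionine, 2 were called higher and 2 lower, a share of 30.8% against 9.42% of all genes tested, with no test between lists. Tpmt, which methylates thiopurines, rose by 1.64 (SE 0.12, adjusted p = 7.07e-05). Its levels were 4.88, 4.40, 4.71 and 4.58 in NZO 003, 007, 009 and 011. In B6 009, 010, 011 and 015 the levels were 2.93, 2.93, 3.05 and 3.12, and the other Tpmt probe was also called, at 1.15. As3mt, the arsenic methyltransferase, fell by 1.48 (adjusted p = 0.00110), and Inmt, which methylates indoleamines, fell by 0.82 (adjusted p = 0.00568). Hemk1, which methylates a protein of mitochondrial translation, passed the adjusted p alone at 0.56 (adjusted p = 0.00942, and 0.0554 with the test of the methods after adjustment). Its other probe, at 0.89, was called. Among 10 genes of nicotinamide and NAD metabolism, 1 passed. Nmnat3, which makes NAD in mitochondria, fell by 2.10 (SE 0.14, adjusted p = 4.20e-05), from 1.62 ± 0.20 in B6 to -0.48 ± 0.19 in NZO. Qprt, an enzyme of NAD synthesis from tryptophan, did not overlap between the strains and passed the adjusted p alone, at 0.49 (adjusted p = 0.00813). Aox1 and Aox3, the oxidases that act on the product of Nnmt, gave -0.07 and 0.09, and Nampt, which recycles nicotinamide, gave 0.17. Of the 7 tested polyamine genes, limma called 0, with 3 at an unadjusted p of 0.05, and the test of the methods after adjustment also called 0. Sat1 and Amd2 passed limma's adjusted p at 0.58 and -0.45, below the fold limit. With the test of the methods after adjustment Sat1 passed and Amd2 did not (adjusted p = 0.0213 and 0.0838).

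**Figure D4:**
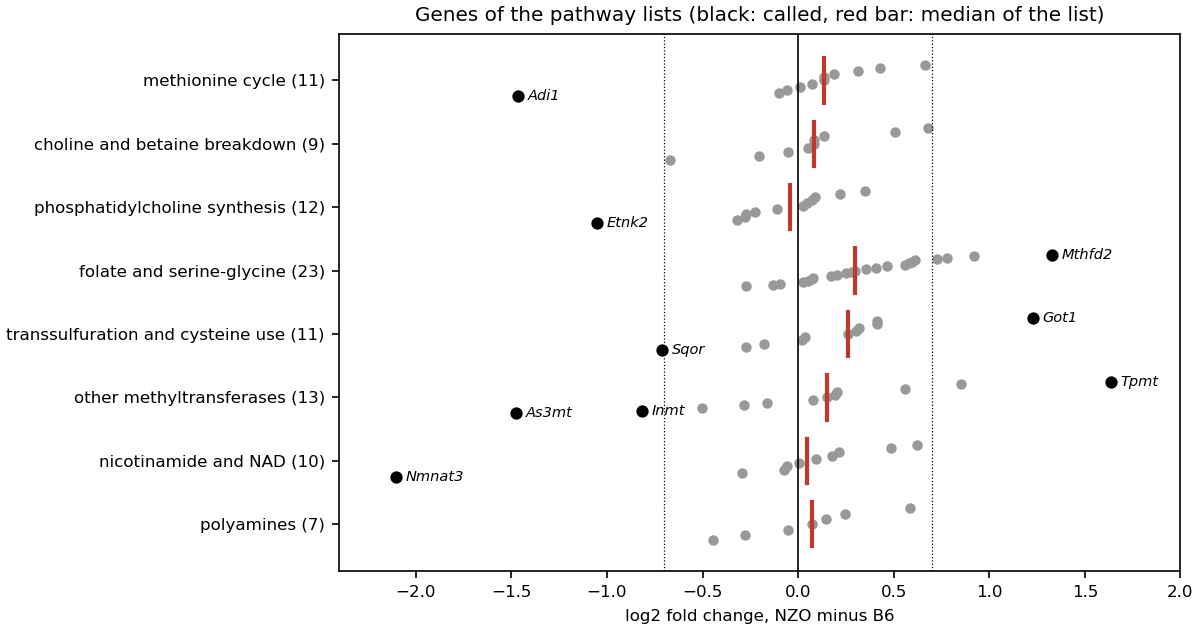
Log2 fold change of NZO against B6 for the tested genes of the 8 pathway lists except 1 called gene, with the number tested behind each list name, called genes in black with their symbols, a red bar at the median of each list and dotted lines at the fold limit of 0.7. The folate and serine-glycine list has the largest median (0.30), and the called genes range from Nmnat3 (-2.10) to Tpmt (1.64).

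Markers of other cells were read on the same arrays. Of the 4 red blood cell genes, Hba-a1 rose by 1.01 and Alas2, the enzyme that starts haem synthesis in erythroid cells, rose by 0.90 (adjusted p = 0.0181 and 0.00230). Hba-a1 was not called with the test of the methods after adjustment (adjusted p = 0.0745). The summed level of the list was 8.20 to 8.88 in NZO and 7.28 to 7.70 in B6, most of it from Hba-a1. Of the 5 leukocyte genes, Itgax, an integrin of dendritic cells and macrophages, met both criteria (adjusted p = 0.0358), but it entered the test through B6, with 2 of the 4 NZO arrays not well above background, so the size of its difference is not given. With the test of the methods after adjustment 0 of the 5 were called. The other 4 genes gave -0.42 for Cd68 (adjusted p = 0.0448), -0.51 for Ptprc (adjusted p = 0.0840), 0.41 for Lyz2 (adjusted p = 0.109) and 0.33 for Cd3e (adjusted p = 0.575). The list's summed level was 3.44 to 4.23 in NZO and 3.44 to 3.74 in B6, led by Cd3e. Of the tested genes of exocrine pancreas, skeletal muscle and kidney (2, 3 and 1 genes), limma called 0, and 0 had an unadjusted p of 0.05 or less. Cela3b, Pnlip, Cpa1, Prss2 and Umod were above background on 0 arrays. The part of these markers in the values of the 9 genes was not tested.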

How the data were processed

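Scanner output and a table of the series were deposited. The intensity values were made, per the file headers, with version 11.0.1.1 of Agilent Feature Extraction (the submitters' processing notes name 9.1), whose processed signal has the background of the array subtracted. The deposited table held raw median intensities (59305 of 59305 spots on every array, tolerance 0.01) and served as an alternative. Control spots and 96 to 137 outlier spots an array were not used. Log2 of the processed signal minus the 75th percentile of the array was averaged over the spots of a probe. That percentile was 119 to 142 in NZO and 137 to 159 in B6, so the scaling differed between the strains. Its part in the small differences was not tested. Probes well above background in all 4 mice of 1 strain or both (27623 of 55681 probes) were compared with limma 3.58.1 in R 4.3.3, without a block and with Benjamini-Hochberg adjustment. In simulated data with 200 changed probes among 27623, 48% were called at a planted log2 change of 1 and 74% at 1.5, with 6 unchanged probes called. More probes (2658) were called in the measured data, and the adjustment depends on that number, so these shares are not the sensitivity there. Pairs of probes were compared by an exact permutation test over mice.

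Gene names came from the mouse gene table through accession (27656), another accession (85), symbol (3347) or synonym (312), and 24281 probes were not matched. The text names all members with every probe, the called genes of each pathway list (at most 4, the largest changes), the 3 genes most like each called probe and the cell type markers. Genes that passed the adjusted p alone, Chdh, Aox1, Aox3 and Nampt were named after their values were seen. The value of 1 called gene of the lists is not reported here, and the gene is part of the counts and medians of its list. The members and lists were chosen with earlier results of these data known. The mouse numbers 009 and 011 occur in both strains, and the labels do not say whether same-numbered mice belong together. They were not taken as pairs in the main fit. Their deviations correlated at -0.26 and -0.004, which is too few values to show whether the mice were matched. Nothing states whether the mice were littermates or cage mates. The alternatives were normexp background correction (offset 50), quantile normalization, the deposited table, no filter on dim probes, the slide as a random (correlation 0.20) or fixed block, the scan day as a fixed term, a replicate block of the mouse number, the methods' Welch-corrected test, leaving out each mouse and, for lists, a mean of all probes of each gene. Tables and plots were made in Python 3.11.15 (pandas 2.3.3, matplotlib 3.10.9).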

Additional observations from a re-analysis of the deposited data

Results flagged for a closer look

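At 2 of 36 groups of 4 mice, 1 mouse lay apart from the others of its strain by more than Dixon's 95% critical value, and chance alone flags about 1 group in 20. The Bhmt probe A_55_P2105181 was at 9.82 in B6 011, below the other B6 mice (10.08 to 10.12), and the Pemt probe A_55_P1970860 was at 7.31 in NZO 007, above the other NZO mice (7.06 to 7.10).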

How the results depend on the processing

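Signal over background limits the weak probes (raw intensity over local background 1.80, median of 8 arrays). In the simulated data, with 4 mice per strain and 200 changed probes, 48% of planted changes of 1 log2 unit were called. The share in the measured data can differ, since 2658 probes were called there and the adjustment depends on how many probes change. Over all probes, 1203 were higher and 1455 lower. Normexp correction gave 617 and 577, the deposited values 575 and 1421, the slide as a fixed term 502 and 981, the Welch-corrected test 834 and 886, and the mouse number as a replicate block 72 and 134. Of the 2 lower member probes, 0 were called with the slide as a fixed term, 0 with the replicate block and 1 with the Welch-corrected test. Higher member probes numbered 0 to 1 when 1 mouse was left out (1 without NZO 007), and lower ones 2 to 3. The 4 higher genes of the pathway lists became 2 with the deposited table, 1 with the slide as a fixed term, 0 with the replicate block and 3 to 7 without 1 mouse (7 without NZO 007). The 6 lower genes became 2 with the slide as a fixed term and 0 with the replicate block. With that block the downstream Ahcy probe gave -1.64 (adjusted p = 0.0960) and the first Nnmt probe -2.63 (adjusted p = 0.172). The second Nnmt probe was called with the deposited table (-2.14, adjusted p = 0.0122). The fits with slide as a fixed term and with the mouse number leave fewer arrays to compare, and the cause of the other changes was not tested. Signs turned only in values close to 0. Mat1a gave 0.10 with the slide as a fixed term and 0.23 with the replicate block. The upstream Ahcy probes A_52_P176160 and A_55_P2031100 gave -0.0040 and -0.026 with quantile normalization and -0.068 and -0.18 with the deposited table. The Cth probes A_51_P431737 and A_55_P1959923 gave -0.041 and -0.090 with quantile normalization and -0.17 and -0.19 with the deposited table, and the latter -0.0073 with normexp and -0.071 with scan day as a fixed term. Without 1 mouse, the values ranged from -0.15 to 0.15 for Mat1a, -0.026 to 0.24 and -0.050 to 0.21 for these Ahcy probes, and -0.044 to 0.18 and -0.12 to 0.15 for the Cth probes. The 13 other member probes kept their sign in all alternatives.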
